A study of Mus musculus with 6 samples.

Results

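The genes examined here encode the sensors of foreign nucleic acid and the transcription factors that act behind them. They were chosen by name from the known pathway, with earlier results of these data already known. They comprise the RNA helicase genes Ddx58, Ifih1 and Dhx58, the endosomal receptor gene Tlr3 and the adaptor gene Mavs. The interferon regulatory factor genes Irf1, Irf2, Irf3, Irf7 and Irf9 complete the set. These 10 genes of 20145 named on the array were read by 13 of 55681 probes, each matched through its transcript accession. In the knockdown cells the sensor transcripts Ddx58 and Ifih1 were called higher, by adjusted p and a 1.5-fold minimum. They were among 9 genes with a tested probe, and Tlr3 had none. No gene of the 9 was called lower, and Mavs lay just short of the minimum fold on the lower side. Over all genes tested, 3.91% were called higher and 4.99% lower.

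RIG-I (encoded by Ddx58, now also named Rigi), MDA5 (Ifih1) and LGP2 (Dhx58) are helicases of the cytosol that bind viral or other double-stranded RNA, and the first 2 pass the signal through their CARD domains to MAVS on the mitochondrial surface. TLR3 reads double-stranded RNA inside endosomes through a separate adaptor. Both routes activate kinases that phosphorylate IRF3 and IRF7, which then switch on type I interferon genes, and IRF9 is the DNA-binding part of the complex that drives interferon-stimulated genes. IRF1 is an activator and IRF2 a related factor that can bind the same DNA elements and oppose it.

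RNA came from neuro2a (N2a), a mouse neuroblastoma cell line, and was hybridised to 6 single-colour Agilent mouse arrays. The 3 control arrays carry RNA of cells that had received an empty vector. The 3 knockdown arrays carry RNA of cells that had received RNAi vectors that target NF-YA and NF-YC by miR hairpins, both subunits of the CCAAT-binding factor NF-Y. Per the study's methods the vectors were pcDNA6.2-GW/EmGFP-miR plasmids delivered by Lipofectamine, so both groups were transfected with plasmid. The empty vector carries no targeting hairpin, so an effect of expressed hairpin RNA and the loss of NF-Y cannot be told apart in this comparison. No source used here states that the replicates were separate cultures, so p-values measure only the spread between these samples.

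The labels were checked first. Nfya was lower in knockdown (log2 change -0.76, limma adjusted p = 0.00130) and so was Nfyc (-1.81, adjusted p = 0.000326). Nfyb, the subunit gene that was not targeted, was named after its values were seen. It was higher in knockdown, by 0.79 to 0.90 over 17 alternative settings. Between 61.9% and 66.2% of non-control spots were well above background on each array, no such spot was saturated, and the 75th percentile of signal was 718 to 754 intensity units. Of 13 markers of neuroblastoma and sympathetic neurons, 11 were well above background on all 6 arrays and Nefl on none, and their summed signal, in multiples of the 75th percentile, was 283 to 290 on control and 261 to 269 on knockdown arrays. Of 8 immune cell markers on the array, 4 (Ptprc, Itgam, Csf1r and Cd3e) were well above background on all 6 arrays and Lyz2 on none, and the summed immune signal overlapped between control (10.3 to 11.9) and knockdown (10.2 to 11.8). Sums of the 6 fibroblast markers were 0.225 to 0.263 in control and 0.257 to 0.293 in knockdown, with 4 markers above background on all arrays and Lum and Pdgfrb on none. Sums of the 6 glial markers were 1.20 to 1.26 in control and lower, at 0.841 to 0.900, in knockdown, with 5 above background on all arrays, and the part of any marker difference in the results was not tested.

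Promoter sequence is given before the values for 5 of the genes, because NF-Y is the factor that was depleted and CCAAT is its motif. A window of 250 bases before the transcription start was available from RefSeq (GRCm38.p6) for 9 of the 10 genes, in 11 windows. It was searched for CCAAT on both strands, and this search was chosen after the expression values had been seen. CCAAT was found in the windows of 3 genes (Mavs, Irf1 and Irf2), and 33.8% of all 32851 windows of that length hold it. Mavs carries CCAAT at 2 positions, and 10.09% of all windows hold it at 2 or more. The windows of Ddx58 and Ifih1, the 2 genes that were called higher, did not hold it. Each window is printed 5′ to 3′ on the strand of its gene, ends at the base before the start, and has CCAAT in capitals.
Ddx58, chr4:40239826-40240075, minus strand: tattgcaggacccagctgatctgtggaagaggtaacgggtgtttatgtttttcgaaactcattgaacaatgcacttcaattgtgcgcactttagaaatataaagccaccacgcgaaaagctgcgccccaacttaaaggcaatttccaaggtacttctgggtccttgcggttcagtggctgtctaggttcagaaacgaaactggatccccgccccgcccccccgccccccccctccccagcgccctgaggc
Ifih1, chr2:62646256-62646505, minus strand: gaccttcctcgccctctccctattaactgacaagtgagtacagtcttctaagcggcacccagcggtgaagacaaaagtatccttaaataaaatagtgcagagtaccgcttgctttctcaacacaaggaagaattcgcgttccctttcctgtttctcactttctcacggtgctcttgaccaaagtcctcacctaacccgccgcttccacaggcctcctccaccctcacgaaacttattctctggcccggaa
Mavs, chr2:131233813-131234062, plus strand: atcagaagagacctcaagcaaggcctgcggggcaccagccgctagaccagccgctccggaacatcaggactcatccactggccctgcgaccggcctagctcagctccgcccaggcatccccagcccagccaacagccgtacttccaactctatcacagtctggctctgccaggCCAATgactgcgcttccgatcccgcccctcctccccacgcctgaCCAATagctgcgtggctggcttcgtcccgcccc
Irf1 (the first of its 2 windows), chr11:53769764-53770013, plus strand: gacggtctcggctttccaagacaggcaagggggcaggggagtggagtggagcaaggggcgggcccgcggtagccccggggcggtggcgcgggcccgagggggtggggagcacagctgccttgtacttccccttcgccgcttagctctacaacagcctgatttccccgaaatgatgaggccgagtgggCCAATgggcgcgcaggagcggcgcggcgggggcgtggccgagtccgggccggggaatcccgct
Irf2, chr8:46739495-46739744, plus strand: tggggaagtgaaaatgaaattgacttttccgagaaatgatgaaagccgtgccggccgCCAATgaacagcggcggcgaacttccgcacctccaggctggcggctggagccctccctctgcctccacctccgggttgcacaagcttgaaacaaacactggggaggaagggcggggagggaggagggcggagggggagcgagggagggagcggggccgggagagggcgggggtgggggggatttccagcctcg
The first base of the Mavs motifs lay 77 and 33 bases before the start, that of Irf1 63 bases before, and that of Irf2 193 bases before. All matches read CCAAT on the strand of the gene. The letters were not found on either strand in the windows of Tlr3 (chromosome 8), Irf3 (7), Irf7 (7) and Irf9 (14) or in the second Irf1 window. A match of letters is a description of the sequence and does not show that NF-Y was bound there.

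Values below are log2 signal minus the 75th percentile of the same array, so 0 is the 75th percentile itself, and a change is knockdown minus control. A gene was called when limma gave a Benjamini-Hochberg adjusted p under 0.05 over all 42208 probes tested and the fold exceeded 1.5, which is 0.585 on the log2 scale. Signals of different probes are not compared with each other, and a probe is said to be at background where the scanner software did not flag it as well above background. Of the 10 genes, 9 had a tested probe and 2 were called higher, whereas 3.91% of the 16514 genes tested were called higher. None of the 9 was called lower by limma, against 4.99% of all genes called lower. By an unadjusted limma p under 0.05 alone, 5 of the 9 were higher and 2 lower, beside 3835 and 3779 of all 16514 genes. The background for a call in either direction was 8.9%.

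**Figure D1:**
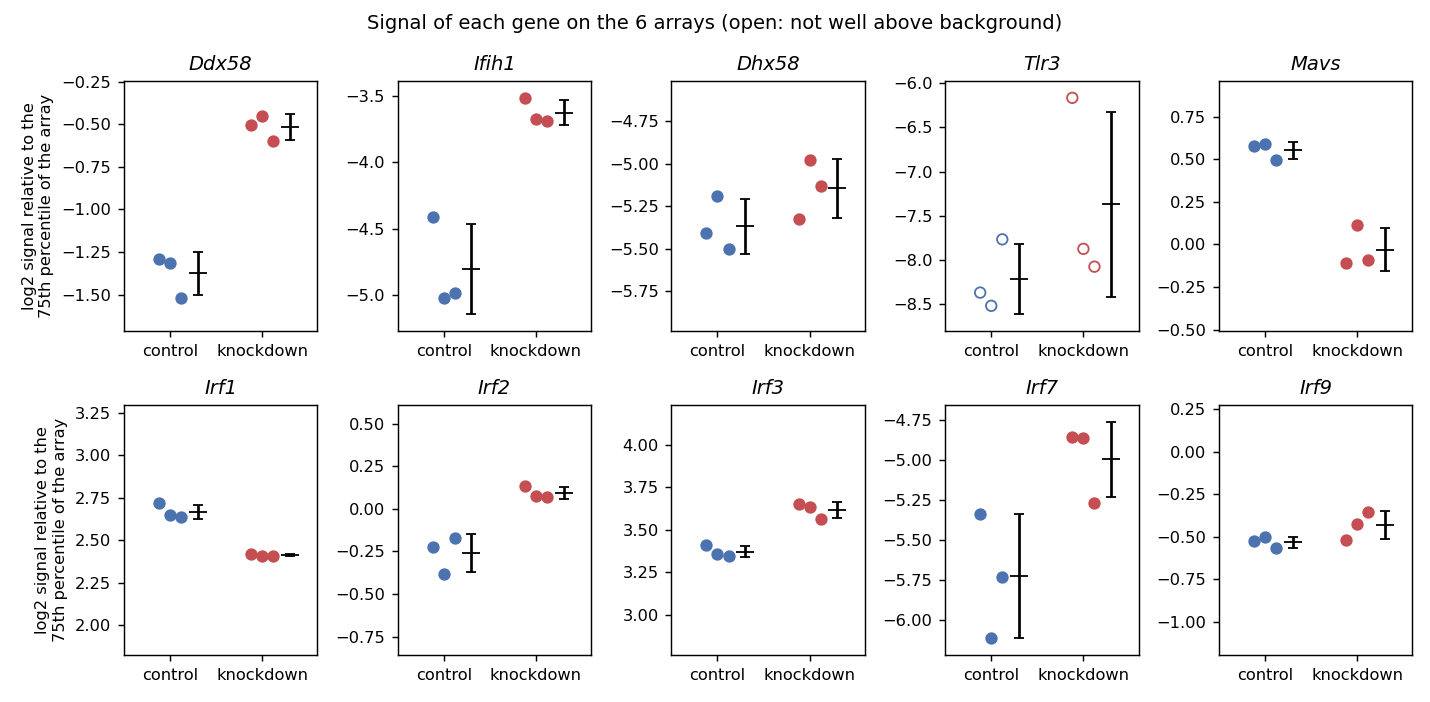
Signal of each of the 10 genes on the 6 arrays, as log2 signal relative to the 75th percentile of the array, with control arrays in blue, knockdown arrays in red and the mean ± SD (n = 3) in black beside each group. Each panel has its own axis, open circles mark arrays where the probe was not well above background, and a clear gap separates the groups for Ddx58, Ifih1 and Mavs while Dhx58, Tlr3 and Irf9 overlap.

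Among the sensors, Ddx58 gave -1.29, -1.32 and -1.52 on control arrays 1 to 3 and -0.50, -0.45 and -0.60 on knockdown arrays 1 to 3. All knockdown arrays lay above all control arrays, with a gap of 0.69 between the groups. The mean moved from -1.38 ± 0.125 (SD, n = 3) to -0.52 ± 0.0748 (SD, n = 3), and the change was 0.86 (SE 0.0823, 95% interval 0.65 to 1.07, limma adjusted p = 0.00260). This is a 1.81-fold rise, from intensities of 263 to 308 in control to 483 to 528 in knockdown. A further Ddx58 probe stayed at background on each of the 6 arrays and its groups overlapped (change 0.49, limma adjusted p = 0.435). When both probes were averaged the change was 0.67 and the call was lost (adjusted p = 0.0617).

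Ifih1, the MDA5 gene, had the largest change of the 9 tested genes. Its values were -4.41, -5.03 and -4.98 on control arrays and -3.51, -3.67 and -3.69 on knockdown arrays. Control array 1 was the highest of its group and still lay 0.73 below the lowest knockdown array. The mean went from -4.81 ± 0.342 (SD, n = 3) to -3.62 ± 0.0965 (SD, n = 3), which is a change of 1.18 (SE 0.184, 95% interval 0.72 to 1.65, limma adjusted p = 0.0107) or 2.27-fold. Its signal was dim but well above background on all 6 arrays, at 22.6 to 35.4 intensity units in control and 56.4 to 65.5 in knockdown. Normexp background correction with an offset of 50, which is close to these intensities, gave a change of 0.47, under the minimum fold (adjusted p = 0.00125). Another Ifih1 probe was at background on every array and was not tested.

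Dhx58 encodes LGP2, the helicase of the family that has no signalling domain of its own. It gave -5.41, -5.19 and -5.50 in control and -5.32, -4.98 and -5.13 in knockdown, so that the groups overlapped. The signal was dim, at 16.6 to 22.8 intensity units, though well above background on all 6 arrays. Its change of 0.22 had a 95% interval of -0.095 to 0.54 (limma adjusted p = 0.271), which includes 0 and lies below the minimum fold. The change was smaller still under normexp (0.063), whose offset of 50 lies above these intensities, and under quantile normalization (0.090). The slide row as a block gave 0.045, but that fit compares knockdown array 1 alone with the controls. The mean of the other knockdown arrays minus the control mean was 0.31. Whether the Dhx58 change of 0.22 differed from those of Ddx58 and Ifih1 was not tested.

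Tlr3 stayed at background on each of the 6 arrays. Intensities were 2.28, 2.01 and 3.45 in control and 10.4, 3.06 and 2.70 in knockdown, and the single higher reading on knockdown array 1 did not recur on the other knockdown arrays. The probe did not pass the filter on dim signals, and no fold is given. These arrays therefore set no level for Tlr3.

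The adaptor gene Mavs, through which RIG-I and MDA5 signal, gave 0.58, 0.59 and 0.49 on control arrays and -0.11, 0.11 and -0.092 on knockdown arrays. Every knockdown array lay below every control array, with a gap of 0.38. The change was -0.58 (SE 0.0776, 95% interval -0.78 to -0.39, limma adjusted p = 0.00678), and intensity went from 1059 to 1124 in control to 685 to 777 in knockdown. The corresponding 1.497-fold difference was just short of the minimum, so the gene was not called. It passed at -0.61 without control array 3 and at -0.65 without knockdown array 2, and its adjusted p stayed between 0.0103 and 0.0349 when each array was left out in turn.

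**Figure D2:**
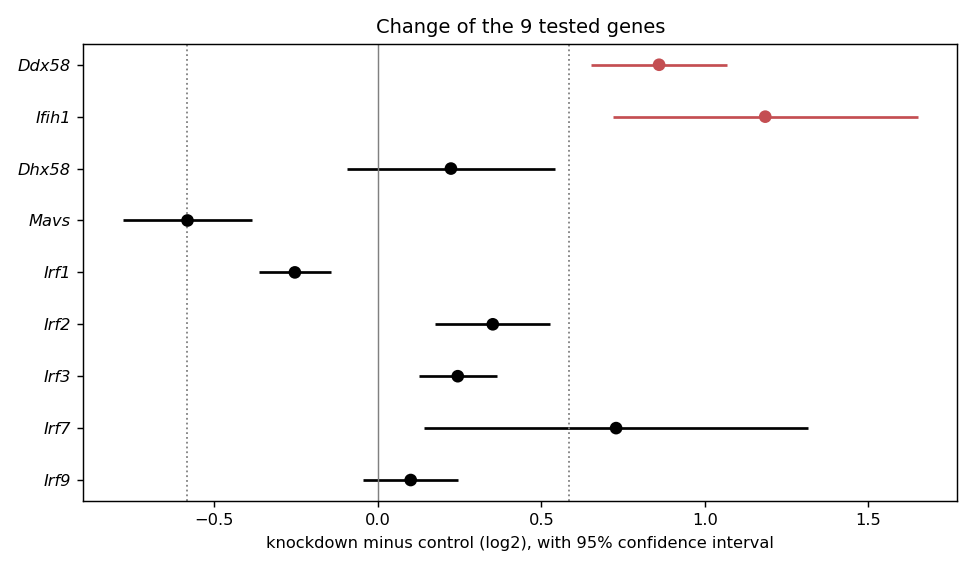
Change of each tested gene (knockdown minus control, log2) as a point with its 95% confidence interval from limma, with called genes in red, a solid line at 0 and dotted lines at the 1.5-fold minimum. Ddx58 (0.86) and Ifih1 (1.18) lie wholly above the minimum, the Mavs point (-0.58) sits on it, and the intervals of Dhx58 and Irf9 include 0.

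The interferon regulatory factor genes changed by less than the minimum fold except Irf7, which missed the adjusted p. Irf3, the factor that first responds to the sensors, gave 3.41, 3.36 and 3.35 in control and 3.65, 3.63 and 3.56 in knockdown. The 3 knockdown arrays were all higher, by little (change 0.24, SE 0.0467, 95% interval 0.13 to 0.36, 1.18-fold, limma adjusted p = 0.0202).

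Irf7 encodes the factor that is itself induced by interferon and amplifies the response. Its values were -5.34, -6.11 and -5.73 in control and -4.86, -4.86 and -5.27 in knockdown. Although all knockdown arrays lay above the controls, the gap was 0.069 and the spread within each group was wide. The change of 0.73 (1.66-fold) had a 95% interval of 0.14 to 1.32 and limma adjusted p = 0.0845. The dimmest signal accepted as well above background was between -6.29 and -5.72 on the 6 arrays, so Irf7 was read near the limit of detection. Restricting the test to probes well above background on all 6 arrays gave the same change with an adjusted p of 0.0474, which counts as a call, whereas normexp gave a change of 0.21 (adjusted p = 0.0765), under the minimum fold. Leaving out each array in turn gave changes of 0.54 to 0.92.

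Irf1 was the only factor gene of the 5 with lower values in knockdown, at 2.72, 2.65 and 2.64 in control against 2.42, 2.41 and 2.41. The 3 knockdown arrays were nearly identical and all below the controls. This was a change of -0.25 (SE 0.0431, 95% interval -0.36 to -0.14, 1.19-fold, limma adjusted p = 0.0140), and it became 0.017 (adjusted p = 0.948) when averaged with a further probe for another Irf1 transcript. That further probe stayed at background throughout, so the average mixes in a signal at background, and its groups overlapped (change 0.29, adjusted p = 0.580).

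Irf2, the antagonist, went the other way, from -0.22, -0.38 and -0.17 in control to 0.14, 0.074 and 0.071 in knockdown. No control array reached the lowest knockdown array. Its change was 0.35 (SE 0.0695, 95% interval 0.17 to 0.53, 1.28-fold, limma adjusted p = 0.0224). The opposite changes of Irf1 and Irf2 were each small against the minimum fold. Both genes carry CCAAT in the windows printed above, as do 33.8% of all windows, and a link to the direction of change was not tested.

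Irf9, which acts downstream of the interferon receptors, gave -0.53, -0.50 and -0.57 in control and -0.52, -0.43 and -0.35 in knockdown. The groups overlapped at knockdown array 1 and the change of 0.10 (95% interval -0.046 to 0.25) had limma adjusted p = 0.281. The change was 0.016 with the slide row as a block, a fit that compares knockdown array 1 alone with the controls. The mean of the other knockdown arrays minus the control mean was 0.14.

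Over the 9 tested genes the median change was 0.24, beside 0.0054 over all genes tested. By adjusted p alone 6 of the 9 passed, beside 31.4% of all genes, with 4 higher (Ddx58, Ifih1, Irf2 and Irf3) and 2 lower (Mavs and Irf1) where the background was 15.7% in each direction. The groups did not overlap for 7 of the 9, against 54.7% of all genes, so separation of 3 arrays from 3 was common on this array set. By slide position, the 3 controls and knockdown array 1 lay in the first row, and knockdown arrays 2 and 3 in the second. Within the first row, knockdown array 1 minus the control mean was 0.87 for Ddx58, 1.30 for Ifih1 and -0.66 for Mavs, and the mean of the second row minus the control mean was 0.85, 1.13 and -0.54. The second row held no control, so limma with the row as a block returned these first-row values. That fit, here and below, compares knockdown array 1 alone with the 3 controls. A call it loses or gains cannot be told apart from the lack of knockdown arrays 2 and 3. In it Ifih1 was not called, Mavs was called lower, and Irf1, Irf2 and Irf3 did not pass adjusted p. The changes of Irf1 (-0.25), Irf2 (0.39) and Irf3 (0.28) were near those without the block (-0.25, 0.35 and 0.24).

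**Figure D3:**
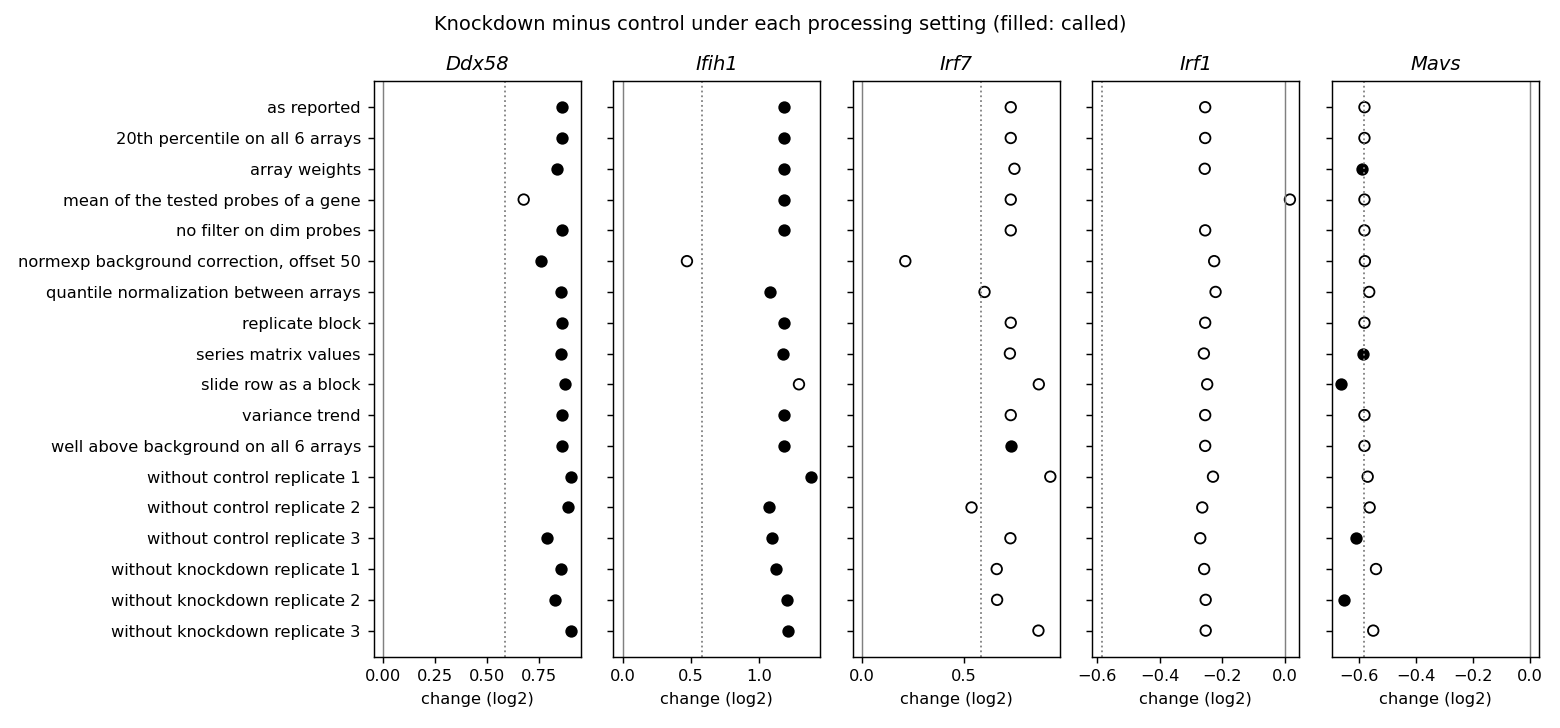
Change (knockdown minus control, log2) of 5 genes under the reported processing and each alternative, with filled points for a call, a solid line at 0 and a dotted line at the 1.5-fold minimum. The slide row block compares knockdown array 1 alone with the controls. Ddx58 loses its call only with averaged probes, Ifih1 under normexp and the slide row block, Irf7 gains a call in 1 setting, Irf1 crosses 0 with averaged probes, and Mavs moves between -0.66 and -0.54 around the minimum.

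Genes whose profile over the 6 arrays was most like that of the 2 called sensors were sought among 13968 genes well above background on all 6 arrays, by Euclidean distance of log2 values centred on their mean. Closest to Ddx58 were Casc1 (distance 0.0606), 9930012K11Rik (0.0744) and Smco1 (0.125). Closest to Ifih1 were Hic1 (0.262), a transcriptional repressor gene, Lurap1 (0.326) and Gbp3 (0.340), a guanylate-binding protein gene of the interferon response. The distances of the Ifih1 neighbours were larger than those of the Ddx58 neighbours.

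The genes around the sensors were then counted in lists written from general knowledge of the pathway. Earlier results of these data were known when the lists were written, so the counts may not be independent of the data. Of 36 partners of the cytosolic RNA route (ubiquitin ligases, TBK1 and IKK kinases, TRAF proteins and NF-kappaB), 35 were tested, 0 were called higher by limma (10 had an unadjusted p under 0.05) and 1 was called lower, with a median change of 0.10. The gene called lower was Tomm70a, a mitochondrial import receptor that binds MAVS, which fell by 0.96 (adjusted p = 0.00133). With the slide row as a block 1 partner was called higher. Counts of calls, here and in the lists below, stand beside backgrounds of 3.91% higher and 4.99% lower over all genes. Counts by unadjusted p stand beside 3835 higher and 3779 lower of 16514 genes.

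In the endosomal route around Tlr3, 11 of 13 genes were tested, with 1 called higher, 1 lower and a median of -0.058. The shares over all genes were 3.91% higher and 4.99% lower. Myd88, the adaptor of the endosomal receptors other than TLR3, rose by 0.85 (adjusted p = 0.00127). Pik3ap1 was called lower (adjusted p = 0.0297) but stayed at background throughout, so no fold is given, and its call held in 8 of 15 alternative settings. Tlr8 and Ticam2 were not tested.

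For cytosolic DNA sensing all 13 genes were tested, 1 was called higher and 2 lower, and the median change was -0.040. Backgrounds were again 3.91% higher and 4.99% lower. Ifi204, a DNA-binding protein of the interferon-inducible p200 family, rose by 0.68 (adjusted p = 0.00931). Aim2, the DNA sensor of an inflammasome, fell by 1.36 (adjusted p = 0.000326), and Enpp1, which degrades the messenger made by cGAS, fell by 0.65 (adjusted p = 0.00170). Ifi204 and Enpp1 were not called under normexp, and Ifi204 was also not called with the slide row as a block.

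Of 21 other genes for proteins that act on double-stranded RNA, 18 were tested, 2 were called higher and 0 lower by limma (3 had an unadjusted p under 0.05 in the lower direction), and the median was 0.10. Among all genes 3.91% were called higher and 4.99% lower. Eif2ak2, the gene of the kinase PKR that halts translation on binding double-stranded RNA, rose by 0.82 (adjusted p = 0.00493), and Oasl2, of the oligoadenylate synthetase family, rose by 0.88 (adjusted p = 0.00135). Eif2ak2 was not called with the slide row as a block.

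Among 7 other interferon regulatory factors and their binding proteins 6 were tested and 0 were called by limma (unadjusted p under 0.05 for 2 higher and 1 lower), with a median of 0.12. Of 11 interferon genes, products of the route in which the sensors act, 5 were tested and 0 were called (1 had an unadjusted p under 0.05). The single Ifnb1 probe stayed at background throughout, and alpha interferon genes are close copies of one another whose probes may share signal. Ifna11 was likewise at background on each array, and the changes of the other 4 tested interferon genes lay between -0.21 and 0.10.

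Of 16 genes for interferon receptors and their signal transducers, 15 were tested, 0 were called higher by limma (7 with an unadjusted p under 0.05) and 2 lower, at a median of 0.13. The background was 3.91% called higher and 4.99% called lower. The receptor chains Ifngr1 and Ifnar1 were the lower ones and fell by 0.80 (adjusted p = 0.00110) and 0.60 (adjusted p = 0.00303). The Ifnar1 call was lost without control array 1 and without knockdown array 3, under normexp, with averaged probes and with the slide row as a block.

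Interferon-stimulated effector genes had the most calls of any list, with 11 of 26 tested called higher, 1 lower and a median change of 0.59. Over all genes 3.91% were called higher and 4.99% lower, and the median change was 0.0054. The count higher was 7 under normexp, 8 when only probes well above background on all 6 arrays were tested and 8 to 12 when each array was left out in turn. Under the reported processing the bound was 6.17-fold higher for Parp14 (adjusted p = 0.000343) and 4.03-fold higher for Gbp7 (adjusted p = 0.00183). Bounds are given since both were at background on all control arrays, and they do not cover the other settings. Normexp took away the call of Gbp7, whose change was as low as 0.46 over the settings run, while Parp14 was called in all 16 with a change no lower than 0.83. Ifit2, of a family that binds foreign RNA, rose by 1.73 (adjusted p = 0.0282) from 1 of 3 control arrays above background, and Samd9l rose by 1.34 (adjusted p = 0.0276). Calls of Ifit2 and Samd9l held in 10 of 16 and 11 of 17 alternative settings. Both were lost without control array 1, without control array 2, without knockdown array 2 and with the slide row as a block. Ifit2 was also lost under normexp and without knockdown array 3, and Samd9l without control array 3 and with the replicate number as a block. The gene called lower, named after its values were seen, was Bst2 (tetherin), which fell by 1.12 (adjusted p = 0.000412). Gbp3, one of the profiles closest to Ifih1, is also on this list and was called higher in all 17 alternative settings. The other genes called higher were named after their values were seen. Of these, Isg15, Xaf1, Psmb8 and Psmb9 were called in all 17 settings, Rsad2 in 16 of 17 and Parp12 in 12 of 17.

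**Figure D4:**
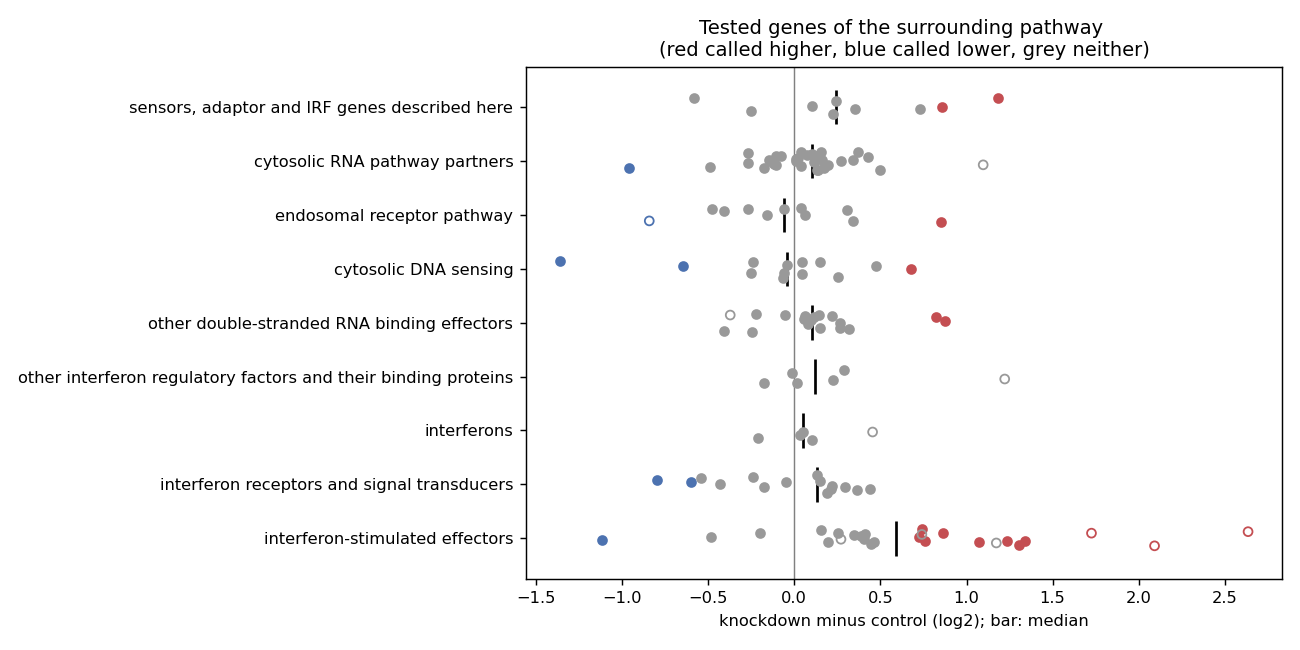
Change (knockdown minus control, log2) of each tested gene of the sensor and factor set and of the 8 surrounding lists, with red for called higher, blue for called lower, grey for neither, open circles for genes not above background on all 6 arrays and a black bar at the median of each list. The interferon-stimulated effectors have 11 of 26 genes called higher and a median of 0.59, whereas the medians of the other surrounding lists lie between -0.058 and 0.13.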

How the data were processed

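RNA of neuro2a cells was measured on 6 single-colour Agilent SurePrint arrays, 3 control and 3 knockdown, grouped and numbered as in the sample titles. The authors scanned the arrays with Agilent Feature Extraction (version 10.10.1.1). Their deposited tables list, for every spot, a linear intensity already corrected for background by that software, beside flags for background, saturation and outliers. The deposited series matrix holds log2 values of unstated scale and centring, and differences between its arrays matched those computed here to within 0.00748 over single-spot probes. The constant taken off each probe there is unknown. Per the methods the authors worked in GeneSpring.

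Control and outlier-flagged spots were removed, log2 signal minus the 75th percentile of the array was taken, and spots of a probe were averaged. Probes were tested when they reached the 20th percentile of their array throughout at least 1 group of 3, leaving 42208 of 55681, while 245 had no value on some array. Symbols came from RefSeq (GRCm38.p6) by accession, matched for 26570 of 27163 curated and 12 of 953 predicted ones. The array annotation uses another build, so probe coordinates are not given. Each gene took the probe of highest mean signal. The test was the two-sided moderated test of limma 3.58.1 (lmFit, then eBayes) under R 4.3.3, with no covariates, after the code had been tested on simulated data. Where a probe was at background in all arrays of a group, a bound replaces the fold: the brighter group's mean over the dimmer group's mean, with each dim reading raised to the array's lowest signal well above background where it was under it. The number of arrays limits precision.

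The members and lists were chosen with earlier results of these data known. Genes named were the 10 members, Nfya and Nfyc, the called genes of each list (the 4 with the largest change where more than 4 were called) and the 3 nearest profiles of each called member. The CCAAT search and any gene marked so were chosen later. Alternatives were quantile normalization, normexp with an offset of 50, the series matrix, other filters, no minimum fold, a variance trend, array weights, averaged probes, the slide row and the replicate number as blocks, and leaving out each array. Normexp used the median spot and background signals, since the mean signal was not in the tables used here.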

Additional observations from a re-analysis of the deposited data

How the results depend on the processing

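Of the 9 genes tested, 2 were called higher and 0 lower as reported, beside 3.91% and 4.99% of all genes. The slide row as a block compares knockdown array 1 alone with the controls. The count higher was 1 with averaged probes, 1 under normexp, 1 with the slide row as a block, 3 when only probes well above background on all 6 arrays were tested and 4 without a minimum fold, and it was 2 whichever array was left out. The count lower was 1 with array weights, 1 with the series matrix, 1 with the slide row as a block, 2 without a minimum fold and 0 to 1 when an array was left out, being 1 without control array 3 or knockdown array 2. Over all genes, 645 higher became 275 under normexp and 2595 without a minimum fold, 824 lower became 2591 without a minimum fold, and leaving out an array gave 548 to 613 higher and 752 to 830 lower. The change of Irf1 turned to 0.017 with averaged probes, an average that includes a probe at background on every array. With the replicate number as a block, 2 of the 9 tested genes were higher and 0 lower, and 518 and 764 of all genes. The limma adjusted p was then 0.0603 for Irf1, 0.0634 for Irf2 and 0.0609 for Irf3. Deviations of arrays with the same number correlated at 0.0023 to 0.066, and those of arrays with different numbers at -0.0805 to 0.0636. With 3 arrays per group these values cannot show whether replicates were prepared in pairs, and no source used here says so. Over all settings run, Ddx58 stayed between 0.67 and 0.90, Ifih1 between 0.47 and 1.38, and Mavs between -0.66 and -0.54. Leaving out an array gave adjusted p of 0.0352 to 0.0598 for Irf1, 0.0354 to 0.0746 for Irf2 and 0.0466 to 0.0762 for Irf3, so each lay above 0.05 in some of these fits and below it in others. Tlr3 was at background and did not pass the filter on dim probes.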
